A study of Mus musculus with 16 samples.

Results

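The circadian clock genes described here are 10 transcripts measured in mouse tail tendon fascicles, the thin collagen strands that run along the tail. They are the clock repressors Per1, Per2, Per3, Cry1, Cry2, Nr1d1, Nr1d2 and Ciart and the clock output genes Dbp and Tef. They were taken by name from a list of clock repressors and outputs, by matching the Ensembl identifiers of the deposited count files to symbols. The list was chosen with earlier results of these data known. All 10 were found among 25719 listed genes, and all 10 were among the 14803 genes that passed the filter on low counts. The study compared 8 wild type (WT) libraries with 8 knockout (KO) libraries labelled ScxCre;Vhl f/f, in which Cre recombinase driven by the tendon gene Scx recombines floxed Vhl in cells of the Scx lineage. Other cells of the fascicle keep Vhl, and each library is RNA of all cells of the dissected tissue. Strain, age, sex, the genotype details of the wild type mice and the time of day of collection are not given in the sources used here. Nothing in the labels says whether libraries of a genotype came from separate mice, so p-values measure only the spread between these libraries, which may be technical.

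The circadian clock is a feedback loop of transcription present in most cells, tendon cells included. BMAL1, with CLOCK or NPAS2 as partner, binds E-boxes and switches on the Per, Cry and Nr1d genes, Ciart, Dbp and Tef. PER and CRY proteins then inhibit that activator pair, and the nuclear receptors encoded by Nr1d1 and Nr1d2 (REV-ERBα and REV-ERBβ) repress Bmal1, Npas2 and Nfil3 at elements that the ROR receptors activate. DBP, TEF and the related HLF activate genes with a D-box, where NFIL3 represses. Transcripts of these groups therefore peak at different times of day, and a level in a single sample depends on when it was taken. VHL marks the hypoxia-inducible factors (HIF) for degradation, and HIF subunits belong to the same bHLH-PAS family of proteins as BMAL1, CLOCK and NPAS2.

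The control sequences of that loop were looked for in the 250 bases before the start sites of the members, since they are the letters by which the groups above are wired together. RefSeq promoters (build GRCm38.p6) were matched for 9 of the 10 members, Per2 being the one without. The E-box CACGTG, which reads the same on both strands, was present in 4 members (Per1, Cry1, Tef and Ciart) and in 6.02% of 32851 promoters. Its variant CACGTT, searched on both strands, was present in Cry1, Cry2 and Nr1d1 and in 3.85% of promoters, and 6 members had either form, against 9.57% of promoters. The D-box TTATGNAA, on both strands, was present in Per1 and Per3 and in 3.07% of promoters. The core of a HIF site, ACGTG, lies inside the E-box and its variant by construction. It was present in 7 members and in 16.6% of promoters, but outside any E-box or variant only in Dbp, against 7.85% of promoters. No member held the ROR element TAGGTCA (2.23% of promoters). Of the opposite-phase genes searched in the same way, Nfil3 held 1, and Bmal1 (listed as Arntl) and Npas2 held 0. A match is a description of the letters and not of binding. Only these exact letters in 250 bases were searched, so a gene without a match may hold other forms or sites elsewhere. The windows below run 5′ to 3′ on the strand of the gene, with the named motif in capitals and any further match in lower case. They show clock motifs in members that differed between genotypes (Per3, Cry1, Nr1d1, Tef) and in members that did not pass the test (Per1, Ciart). The ROR element is shown in Nfil3, which is not a member, and the HIF core has no window.
Per1 E-box, 166 bases before the start, chr11:69098763-69098808 (+): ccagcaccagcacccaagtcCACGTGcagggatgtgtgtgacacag
Per1 D-box, 24 bases before the start, chr11:69098905-69098948 (+): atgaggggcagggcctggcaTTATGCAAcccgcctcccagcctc
Per3 D-box, 205 bases before the start, chr4:151044843-151044890 (-): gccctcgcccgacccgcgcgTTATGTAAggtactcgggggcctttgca
Per3 D-box, 158 bases before the start, chr4:151044796-151044843 (-): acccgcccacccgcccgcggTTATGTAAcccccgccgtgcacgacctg
Cry1 E-box, 60 bases before the start, chr10:85185089-85185134 (-): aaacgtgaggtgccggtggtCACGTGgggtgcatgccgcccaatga
Nr1d1 E-box variant on the opposite strand, 28 bases before the start, chr11:98775380-98775425 (-): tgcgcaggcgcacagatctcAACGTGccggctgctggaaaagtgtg
Tef E-box, 127 bases before the start, chr15:81802526-81802571 (+): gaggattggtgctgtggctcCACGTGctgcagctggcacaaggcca
Ciart E-box, 58 bases before the start, chr3:95882261-95882306 (-): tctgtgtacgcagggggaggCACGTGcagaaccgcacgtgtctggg
Nfil3 ROR element on the opposite strand, 12 bases before the start, chr13:52981040-52981071 (-): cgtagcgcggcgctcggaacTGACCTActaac
Per3 carried a pair of D-boxes and no E-box in this window, while Ciart carried 3 E-boxes.

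Libraries held 10792900 to 16379401 counts in the wild type group and 10488355 to 18753254 counts in the knockout group. Levels are given in CPM, counts per library scaled to a common size by the TMM method; a floor of 3 counts equals 0.145 to 0.336 CPM, and the lowest member count in any library was 140, for Ciart. Vhl was at 20.5 ± 3.69 CPM in wild type and 9.35 ± 1.25 CPM in knockout libraries (SD, n = 8), and no knockout library reached the lowest wild type library. The 10 tenocyte markers summed to between 137637 and 387474 CPM in the wild type and to between 83546 and 185144 CPM in the knockout, with 7 of 10 lower and 1 higher, so the labelled tissue was present in every library. Several marker lists of other cells moved with genotype too. Of all genes tested, 25.6% were higher and 22.7% lower. The share called higher was near that of all genes for macrophage markers and below it for skeletal muscle markers. The 10 endothelial markers, of which Pecam1 was the most abundant, summed to 39.6 to 56.5 CPM in the wild type and 56.1 to 481 CPM in the knockout, with 5 of 7 tested higher. Mural cell markers summed to 170 to 254 and 206 to 1183 CPM (4 of 5 tested higher, 1 lower), erythroid markers to 15.1 to 50.7 and 77.8 to 562 CPM (5 of 5 tested higher), and adipocyte markers to 0.29 to 2.30 and 0.765 to 65.0 CPM (1 of 1 tested higher). Skeletal muscle markers summed to 50.6 to 4240 and 135 to 8091 CPM (1 of 12 higher), macrophage markers to 712 to 1049 and 743 to 1131 CPM (2 of 7 higher), Schwann cell markers to 28.2 to 42.7 and 27.9 to 87.0 CPM (2 of 5 tested higher), and keratinocyte markers to 20.7 to 49.0 and 12.5 to 18.1 CPM (2 of 2 tested lower, Krt1 at 0 in every library). In bulk tissue, fewer cells of a type and less RNA per cell cannot be told apart.

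Between genotypes the members did not move as one group. Dbp, Tef, Per3, Nr1d1 and Nr1d2 fell in the knockout by between 1.39-fold and 1.74-fold, Cry1 rose 1.53-fold, and Per1, Per2, Cry2 and Ciart did not pass the test. Thus 6 of 10 members passed an adjusted p of 0.05, 1 higher and 5 lower (quasi-likelihood test of edgeR, adjusted by Benjamini-Hochberg over all 14803 genes and called edgeR adjusted p below). Of all genes tested, 48.3% passed, 25.6% higher and 22.7% lower, so the share of members called is near the background. The median log2 fold change was -0.28 over the members and 0.02 over all tested genes. In 3 members (Per3, Nr1d2 and Tef), all lower, every knockout library was outside the wild type range, against 19.4% of all genes in either direction and 8.61% of all genes lower. On total counts, with no TMM factor, the median over all genes moved to 0.32 and the share of calls that were higher moved from 53.0% to 85.4%, and the members then split into 3 higher and 3 lower.

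**Figure D1:**
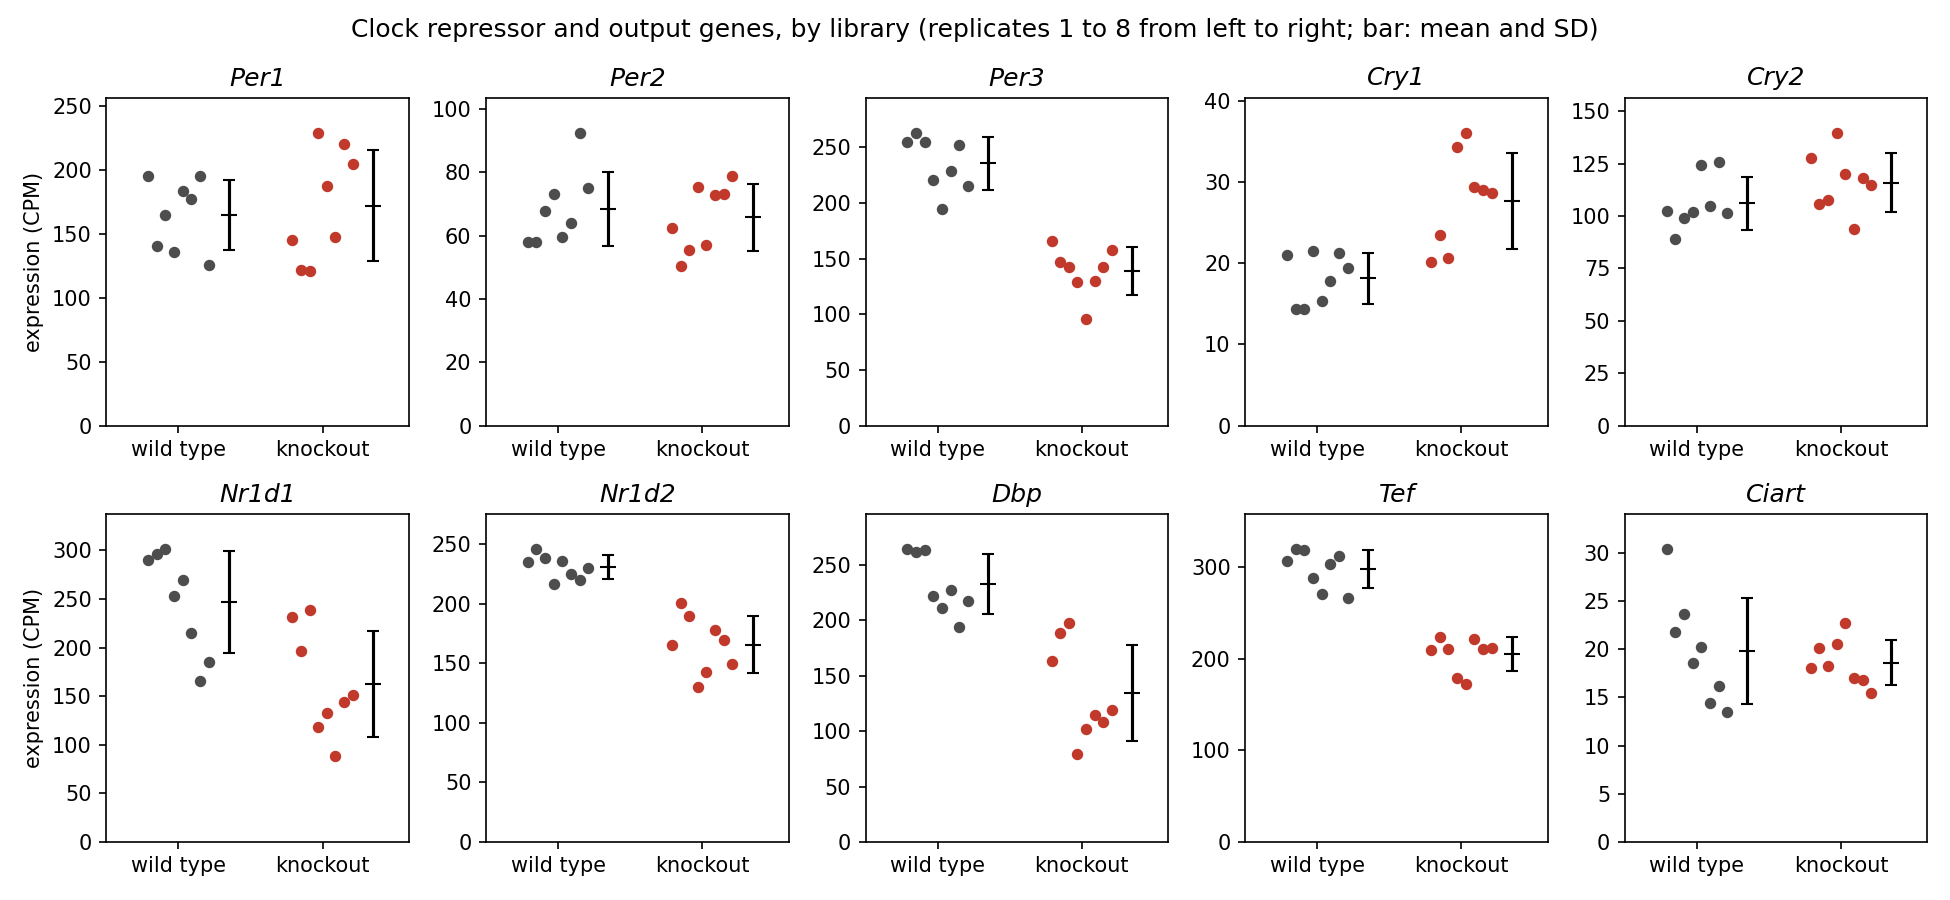
Expression in CPM (linear axis from 0) of the 10 clock repressor and output genes in each of 8 wild type (grey) and 8 knockout (red) libraries; the bar beside each set is the mean and SD. The sets do not overlap for Per3, Nr1d2 and Tef, and the 3 leftmost knockout libraries, replicates 1 to 3, hold the highest Dbp and Nr1d1 and the lowest Cry1 of their genotype.

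The 3 Per genes, which encode the period proteins that inhibit the activator pair, did not move together. Per3 lay at 195, 241 and 263 CPM (lowest, median and highest) in the wild type and at 95.8, 142 and 166 CPM in the knockout. Every knockout library was below every wild type library, and the log2 fold change was -0.76 (SE 0.0952; edgeR adjusted p = 1.65e-06). It kept its call in all 27 alternatives, with log2 fold changes between -0.83 and -0.46. Per1, an immediate responder to hormone and stress signals as well as a clock gene, lay at 126, 171 and 196 CPM in the wild type and at 121, 168 and 229 CPM in the knockout. These ranges overlapped throughout, and the log2 fold change was 0.06 with a 95% interval from -0.24 to 0.37 (edgeR adjusted p = 0.743). Per2 lay at 57.9, 65.9 and 92.3 CPM and at 50.4, 67.7 and 78.8 CPM, again with overlap, and its log2 fold change was -0.06 with a 95% interval from -0.29 to 0.17 (edgeR adjusted p = 0.679). On total counts Per1 passed at 0.37 (edgeR adjusted p = 0.0345), and with the endothelial marker score as a covariate Per2 passed at -0.49 (edgeR adjusted p = 0.0147). Differences between the fold changes of the Per genes were not tested.

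The cryptochromes Cry1 and Cry2 encode the stronger inhibitors of the loop, and of the pair Cry1 peaks late. Cry1 lay at 14.3, 18.6 and 21.5 CPM in the wild type and at 20.1, 28.8 and 36.0 CPM in the knockout. Knockout libraries 1, 2 and 3, at 20.1, 23.5 and 20.6 CPM, were the lowest of their genotype, and 2 of them fell within the wild type range. The log2 fold change of Cry1 was 0.62 (SE 0.130; edgeR adjusted p = 6.21e-04). Cry2 lay at 89.1, 102 and 126 CPM and at 93.6, 117 and 140 CPM, with a log2 fold change of 0.13 and a 95% interval from -0.05 to 0.31 (edgeR adjusted p = 0.213). The call of Cry1 was lost with the endothelial score as a covariate (0.49; edgeR adjusted p = 0.0922), and on total counts Cry2 passed at 0.43 (edgeR adjusted p = 4.67e-04).

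Nr1d1 and Nr1d2, the heme-binding repressors of Bmal1, both fell. Nr1d2 lay at 217, 232 and 245 CPM in the wild type, the narrowest range of any member relative to its level, and at 130, 167 and 200 CPM in the knockout. The groups did not overlap, and the log2 fold change was -0.48 (SE 0.0788; edgeR adjusted p = 4.65e-05). Nr1d1 was more variable in both genotypes, at 166, 261 and 301 CPM in the wild type and 88.3, 148 and 238 CPM in the knockout. Knockout libraries 1 to 3 (231, 196 and 238 CPM) were above the 2 lowest wild type libraries (166 and 185 CPM), and the other 5 were below every wild type library. The log2 fold change of Nr1d1 was -0.61 (SE 0.191; edgeR adjusted p = 0.0146). Neither call was kept on total counts (Nr1d1 -0.32, edgeR adjusted p = 0.153; Nr1d2 -0.18, edgeR adjusted p = 0.0932). With the endothelial score as a covariate Nr1d1 was at -0.19 (edgeR adjusted p = 0.685), while Nr1d2 still passed at -0.36 (edgeR adjusted p = 0.0402).

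Dbp and Tef encode PAR bZIP factors, the proteins that carry the output of the loop to D-box genes. Dbp lay at 194, 225 and 264 CPM in the wild type and at 79.5, 117 and 198 CPM in the knockout. Knockout libraries 1, 2 and 3 held 163, 189 and 198 CPM and the other 5 held 79.5 to 119 CPM, so the knockout split into 2 sets, and library 3 alone reached the lowest wild type library. Wild type libraries 1, 2 and 3 likewise held the highest Dbp of their genotype, at 264, 261 and 264 CPM against 194 to 227 CPM in the other 5. These 6 libraries are the first 6 in the order of deposit, and what that order or the replicate numbers stand for is not given in the sources used here. The log2 fold change of Dbp was -0.80 (SE 0.160; edgeR adjusted p = 4.27e-04). Tef lay at 267, 305 and 320 CPM and at 173, 211 and 224 CPM, with no overlap and a log2 fold change of -0.54 (SE 0.0686; edgeR adjusted p = 2.07e-06). The call of Dbp was lost with the endothelial score as a covariate (-0.32; edgeR adjusted p = 0.304), while Tef stayed at -0.55 (edgeR adjusted p = 0.00136). That score scarcely overlaps between genotypes, so in that fit vessel content and genotype cannot be told apart.

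Ciart, also called CHRONO, encodes a further repressor that binds BMAL1. It lay at 13.5, 19.4 and 30.4 CPM in the wild type and at 15.5, 18.2 and 22.7 CPM in the knockout, so the knockout range was inside that of the wild type. Its log2 fold change was -0.09 with a 95% interval from -0.39 to 0.21 (edgeR adjusted p = 0.620).

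Levels can be ranked between genes only per length. Divided by exon length (GENCODE M21), the wild type order was Nr1d1 (80.2 ± 17.0 CPM per kb), Dbp (77.8 ± 9.00), Nr1d2 (42.6 ± 1.79), Tef (37.9 ± 2.64), Per1 (29.3 ± 4.90), Per3 (24.5 ± 2.51), Cry2 (16.8 ± 1.99), Per2 (11.7 ± 1.99), Ciart (8.78 ± 2.44) and Cry1 (5.42 ± 0.926), each as the SD over 8 libraries. Among neighbours in that order, the ranges of mean ± SD overlapped for Nr1d1 and Dbp, Per1 and Per3, Per2 and Ciart, and Ciart and Cry1. In the knockout Nr1d1 (52.8 ± 17.6 CPM per kb) and Dbp (44.8 ± 14.5) still had the highest means. The range of Per1 (30.6 ± 7.75) overlapped both, and that of Nr1d2 (30.6 ± 4.39) overlapped Dbp. The mean of Per3 (14.4 ± 2.22) lay below that of Cry2 (18.3 ± 2.23) with overlapping ranges, and Cry1 (8.28 ± 1.76) and Ciart (8.24 ± 1.05) were level. Counts of 4 members are uncertain because their exons overlap a gene on the other strand and the use of strand in counting is not given in the sources used here. These are Dbp with Sphk2 (539 bases), Cry2 with D930015M05Rik (295 bases), Nr1d1 with Thra (263 bases) and Tef with Gm17597 (193 bases).

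Among the activators and opposite-phase factors of the loop, the activators Bmal1 and Npas2 and the repressor Nfil3 rose in the knockout. Bmal1, listed as Arntl, lay at 4.15, 6.31 and 6.86 CPM in the wild type and at 12.7, 15.7 and 33.0 CPM in the knockout. No library overlapped, and the log2 fold change was 1.62 (SE 0.200; edgeR adjusted p = 1.92e-06). Npas2, which can replace CLOCK, rose from 3.90 ± 0.72 to 7.64 ± 2.10 CPM (SD, n = 8) without overlap, a log2 fold change of 0.96 (SE 0.166; edgeR adjusted p = 7.98e-05). Nfil3, the D-box repressor, lay at 1.59, 2.90 and 11.2 CPM in the wild type and at 9.23, 20.9 and 34.3 CPM in the knockout. Wild type library 7 was the one that reached the knockout range, and the log2 fold change was 2.42 (SE 0.412; edgeR adjusted p = 1.50e-04). Clock itself was at 121 ± 12.2 and 109 ± 8.61 CPM (SD, n = 8), with a log2 fold change of -0.15 and a 95% interval from -0.30 to -0.01 (edgeR adjusted p = 0.0714).

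Not all activators were higher. Rorb, which encodes a receptor that activates Bmal1, fell from 14.6 ± 5.01 to 7.53 ± 2.39 CPM (SD, n = 8; log2 fold change -0.96; edgeR adjusted p = 5.55e-04). The call of Rorb was lost with the endothelial score as a covariate (-0.62; edgeR adjusted p = 0.165). Of the 8 activators and opposite-phase factors, 3 rose (Nfil3, Arntl and Npas2), 2 fell, Rorb among them, and 3 did not pass, Clock among them.

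Among 12 kinases, ubiquitin ligases and modulators, which set how long PER and CRY proteins last or tune the activators, 2 rose and 3 fell. Timeless, which also serves DNA replication forks, rose from 1.91 ± 0.221 to 6.08 ± 1.45 CPM with no overlap (log2 fold change 1.66; edgeR adjusted p = 1.49e-08). Bhlhe40, an E-box repressor known as a HIF target, rose by 0.33 (edgeR adjusted p = 0.0179). Cipc, an inhibitor of CLOCK, fell by 0.54 on the log2 scale with no overlap (edgeR adjusted p = 6.73e-05), and Btrc, part of a ligase that targets PER proteins, fell by 0.40 (edgeR adjusted p = 8.79e-05), which total counts did not keep (-0.10; edgeR adjusted p = 0.287). Bhlhe41, the paralog of Bhlhe40, fell by 0.38 (edgeR adjusted p = 0.0334), a call lost when any 1 of 8 libraries was left out (wild type 1 to 4 and knockout 4, 6, 7 and 8), and in 11 of 27 alternatives in all. The other 7, among them the kinase genes Csnk1d, Csnk1e and Gsk3b, did not pass. Counts of Bhlhe41 are uncertain, since its exons overlap those of Gm43909 on the other strand by 1280 bases, and shorter overlaps (33 to 400 bases) hold for Arntl, Timeless, Bhlhe40 and Usp2.

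Of 6 further outputs, 1 rose and 3 fell. Hlf, the third PAR bZIP gene, lay at 31.5, 40.4 and 52.3 CPM in the wild type and at 11.0, 17.0 and 25.8 CPM in the knockout, without overlap (log2 fold change -1.29; edgeR adjusted p = 4.20e-07). It fell further than either Dbp (-0.80) or Tef (-0.54), although the difference was not tested. Usp2 fell by 0.77 (edgeR adjusted p = 9.30e-04) and Klf9 by 0.51 (edgeR adjusted p = 0.00768), the latter lost on total counts (-0.20; edgeR adjusted p = 0.254) and with the endothelial score (-0.55; edgeR adjusted p = 0.120). Klf10 rose by 0.47 (edgeR adjusted p = 8.09e-04). Wee1, a cell cycle kinase gene with E-boxes, was level at a log2 fold change of 0.00 with a 95% interval from -0.48 to 0.48 (edgeR adjusted p = 0.998). In all, 14 of 26 clock genes outside the members passed (53.8%), 6 higher and 8 lower, with a median log2 fold change of -0.06, a share that is also near the 48.3% of all genes.

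**Figure D2:**
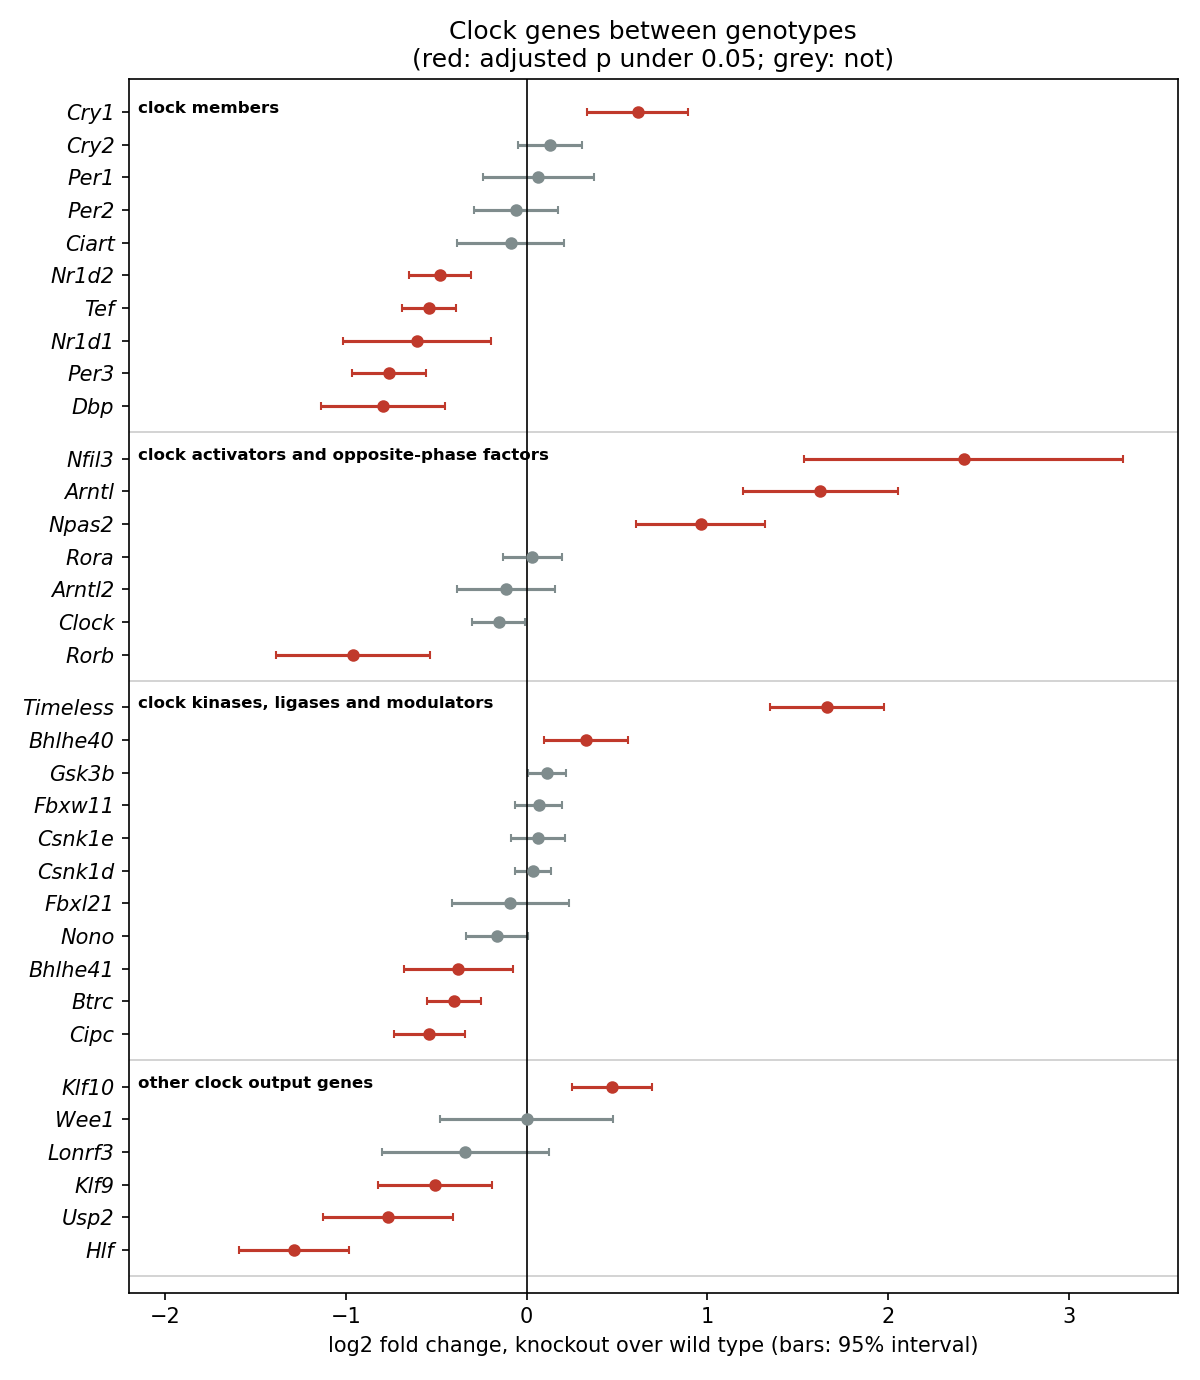
Log2 fold change, knockout over wild type, of the 10 members and of other clock genes on a linear axis in log2 units, with 95% intervals from the fit over 16 libraries; red marks an edgeR adjusted p under 0.05. Nfil3 (2.42), Timeless (1.66) and Arntl (1.62) lie farthest to the right of the genes drawn, and Hlf (-1.29) farthest to the left.

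The members also differed in how much they varied between libraries of the same genotype. Among 5249 genes with a mean log2 CPM of at least 5, the median SD of log2 CPM was 0.14 in wild type and 0.16 in knockout libraries. Nr1d1 varied by 0.33 and 0.49, Dbp by 0.17 and 0.46, and Per1 by 0.25 and 0.37. The highest knockout library held 2.70 times the Nr1d1 and 2.48 times the Dbp of the lowest. Tef varied by 0.10 and 0.14, and Nr1d2 by 0.06 and 0.21. Dbp, Nr1d1 and Per1 thus varied more than the median gene in both genotypes, and Tef less. Per2 (0.23 and 0.24), Per3 (0.15 and 0.24) and Cry2 (0.17 and 0.18) also lay above the median in both, and Nr1d2 only in the knockout.

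To ask which genes shared that variation, each gene was fitted on the Dbp level of its library, centred within genotype. Dbp served as the axis because it is a clock output whose level changes much over a day, and because the time of collection is not given in the sources used here. A slope is the change in log2 level for each log2 unit of Dbp. Of the other 9 members, 2 passed: Nr1d1 followed Dbp with a slope of 0.92 (SE 0.181; edgeR adjusted p = 0.0308) and Cry1 ran against it with a slope of -0.63 (SE 0.141; edgeR adjusted p = 0.0495). Of all genes, 0.622% passed, 0.358% with a positive and 0.263% with a negative slope. At an unadjusted p under 0.05 there were 6 of 9 members, against 15% of all genes. Since the members were chosen with earlier results of these data known, these shares are a description and not independent support. Nr1d2 had a slope of 0.36 (edgeR adjusted p = 0.0639), Per1 of -0.66 (edgeR adjusted p = 0.0650) and Per2 of -0.45 (edgeR adjusted p = 0.132), none past the threshold. Slopes of Per3 (0.28), Tef (0.21), Ciart (0.14) and Cry2 (-0.24) had edgeR adjusted p-values of 0.343, 0.322, 0.791 and 0.335.

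Of the 26 other clock genes, Wee1 passed, with a slope of -1.19 (SE 0.172; edgeR adjusted p = 0.00330). The opposite-phase genes Nfil3 and Arntl had slopes of -1.74 (edgeR adjusted p = 0.0522) and -0.83 (edgeR adjusted p = 0.0627), which did not pass. The slopes rest on few libraries. Both member calls were lost without wild type library 2 or without knockout library 1, 2, 3 or 4. The call of Cry1 was kept in 6 of 21 alternatives on the Dbp axis, and that of Nr1d1 in 14 of 21. With the position of a library in the deposit as a further covariate, none of 14802 genes passed. With the replicate number as a block, 0 members and 0 other clock genes passed. The slope of Nr1d1 and of Cry1 kept its sign in every alternative (0.55 to 1.09 and -0.69 to -0.34).

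Knockout libraries 1 to 3, which held the highest Dbp of their genotype, held the 3 lowest Cry1 (20.1 to 23.5 CPM against 28.6 to 36.0 CPM), the 3 highest Nr1d1 (196 to 238 CPM against 88.3 to 151 CPM) and the 3 lowest Nfil3 (9.23 to 12.0 CPM against 19.9 to 34.3 CPM). They also held the 3 lowest Sgk1 (74.7 to 82.8 CPM against 94.9 to 211 CPM). The mean log2 level of each marker list was correlated with Dbp, over 8 wild type and 8 knockout libraries in turn. The correlation was negative in both genotypes for adipocyte (-0.66 and -0.66), mural cell (-0.65 and -0.55), endothelial (-0.59 and -0.53), macrophage (-0.67 and -0.49), Schwann cell (-0.30 and -0.69), erythroid (-0.56 and -0.15) and skeletal muscle markers (-0.51 and -0.18). It was 0.13 and 0.49 for keratinocyte and -0.20 and 0.39 for tenocyte markers. Their part in the shared variation was not tested.

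**Figure D3:**
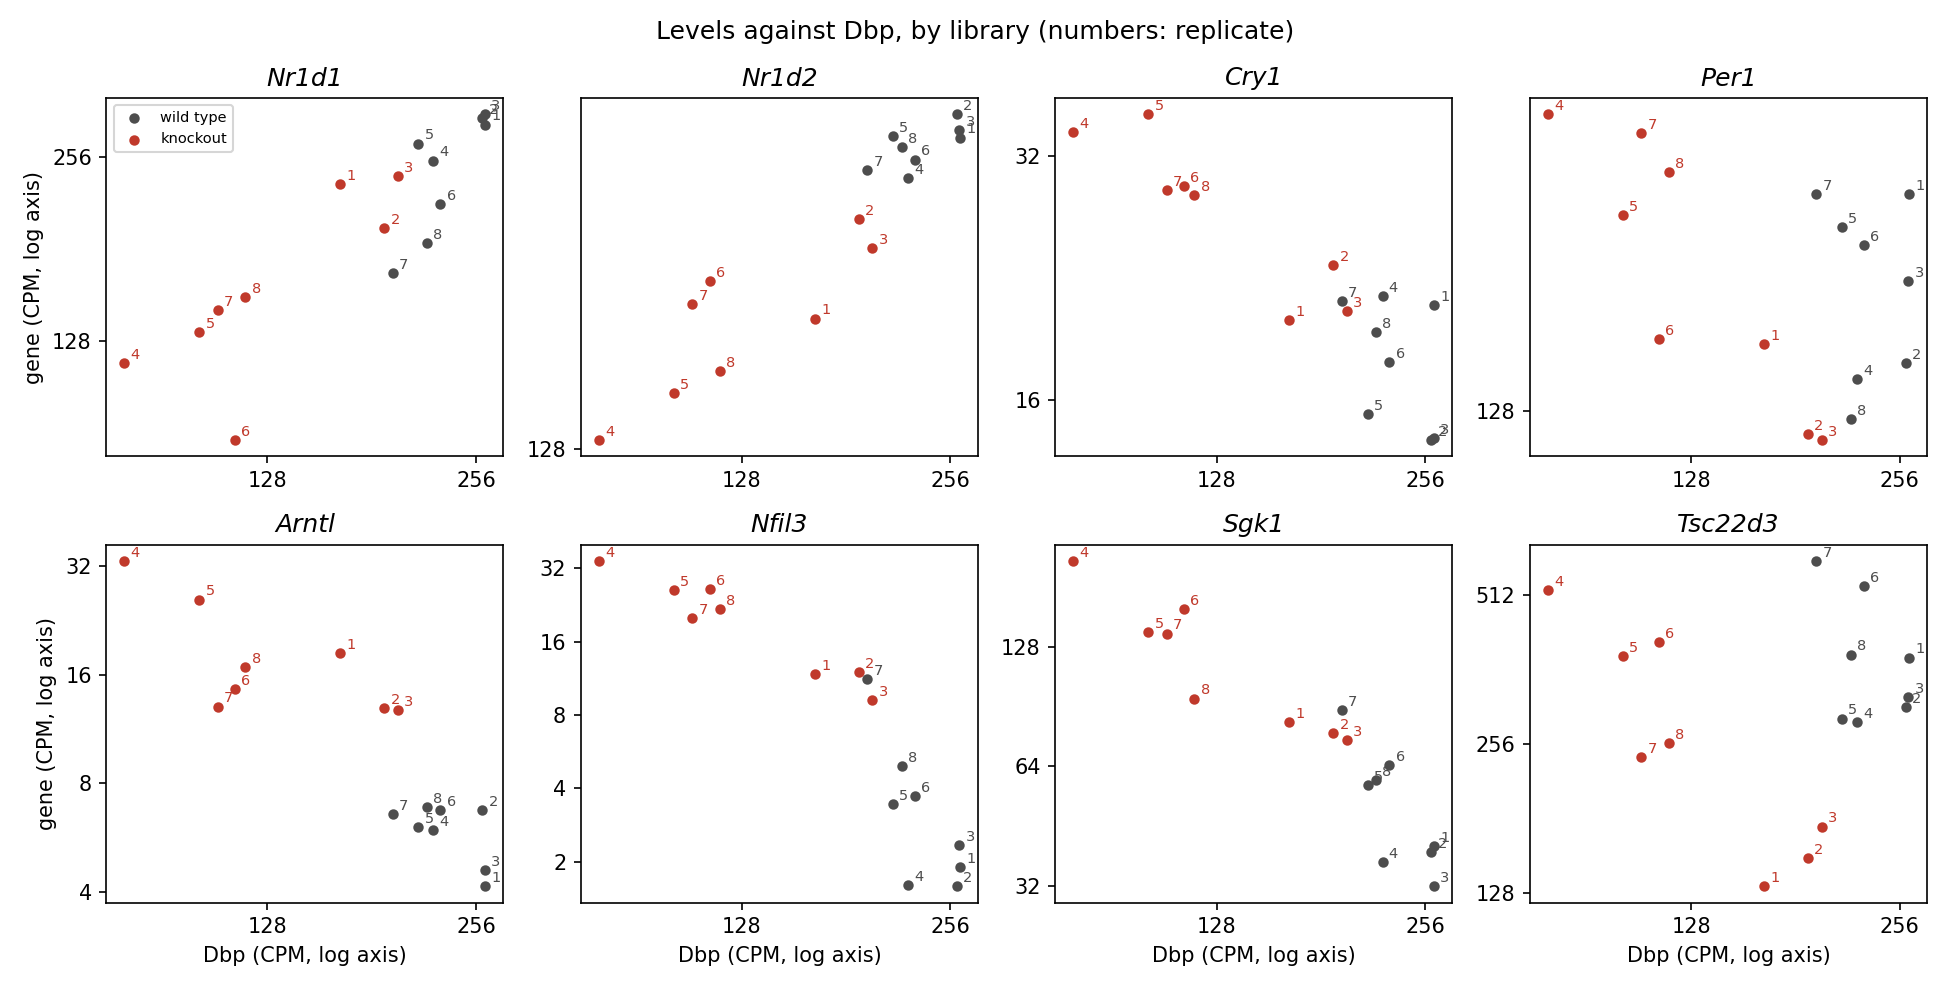
Level of 8 genes against Dbp in the same library, in CPM on log axes, for 8 wild type (grey) and 8 knockout (red) libraries numbered by replicate. Nr1d1 and Nr1d2 lie higher where Dbp is higher and Cry1, Arntl, Nfil3 and Sgk1 lower, with knockout libraries 1 to 3 (163 to 198 CPM of Dbp) apart from the other 5 (79.5 to 119 CPM).

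No gene passed the test of whether its Dbp slope differed between genotypes (0% of 14802, with 3.09% at an unadjusted p under 0.05, edgeR), and of the 9 members 1, Ciart, had an unadjusted p under 0.05. The slope of Ciart on Dbp was 1.64 in wild type libraries and -0.05 in knockout libraries, a difference of -1.71. The edgeR adjusted p of that difference was 1, and the unadjusted p of the quasi-likelihood test over 16 libraries was 0.00502.

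Phase relations between members were described by the 45 pairwise correlations of log2 CPM over the 8 libraries of each genotype, with exact two-sided permutation tests over all 40320 pairings. In the wild type 7 pairs and in the knockout 13 pairs had an exact p under 0.05, and none passed after adjustment over the 90 tests. The median absolute r was 0.443 in wild type and 0.568 in knockout libraries. The sign was shared between genotypes by 33 pairs and opposite in 12, which was not tested. In the knockout, libraries 1 to 3 stood apart from the other 5 in Dbp, Cry1 and Nr1d1, and no correlation was computed within these small sets. As residuals on the muscle marker score within genotype, 14 of the 90 pairs passed after adjustment. The permutation test made no allowance for the fit on that score, so the p-values of these residuals may be too small.

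The pair with the smallest p was Per3 and Tef in the wild type (Pearson r = 0.92, exact permutation p = 0.00109, adjusted 0.0960; Spearman rho = 0.95, exact permutation p = 0.00114, adjusted 0.103). It stayed at r = 0.91 without the 2 libraries farthest from the median. Nr1d1 ran with Ciart in the wild type (r = 0.81, exact permutation p = 0.0144, adjusted 0.140; rho = 0.86, exact permutation p = 0.0107, adjusted 0.138; r = 0.85 without the 2 farthest), whereas r was 0.00 in the knockout. Per2 ran against Nr1d1 in the wild type (r = -0.81, exact permutation p = 0.0135, adjusted 0.140; rho = -0.71, exact permutation p = 0.0576, adjusted 0.305), but r fell to -0.30 without libraries 7 and 8, so the relation rests on those. Cry1 ran against Nr1d2 (r = -0.79, exact permutation p = 0.0263, adjusted 0.170; rho = -0.90, exact permutation p = 0.00456, adjusted 0.109; r = -0.57 without the 2 farthest). In the knockout the 2 smallest p-values belonged to pairs with Dbp. Cry1 ran against Dbp (r = -0.91, exact permutation p = 0.00308, adjusted 0.0960; rho = -0.88, exact permutation p = 0.00724, adjusted 0.109; r = -0.90 without libraries 1 and 3, the 2 farthest in Cry1). Per1 ran against Dbp too (r = -0.89, exact permutation p = 0.00320, adjusted 0.0960; rho = -0.88, exact permutation p = 0.00724, adjusted 0.109; r = -0.81 without libraries 3 and 4).

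**Figure D4:**
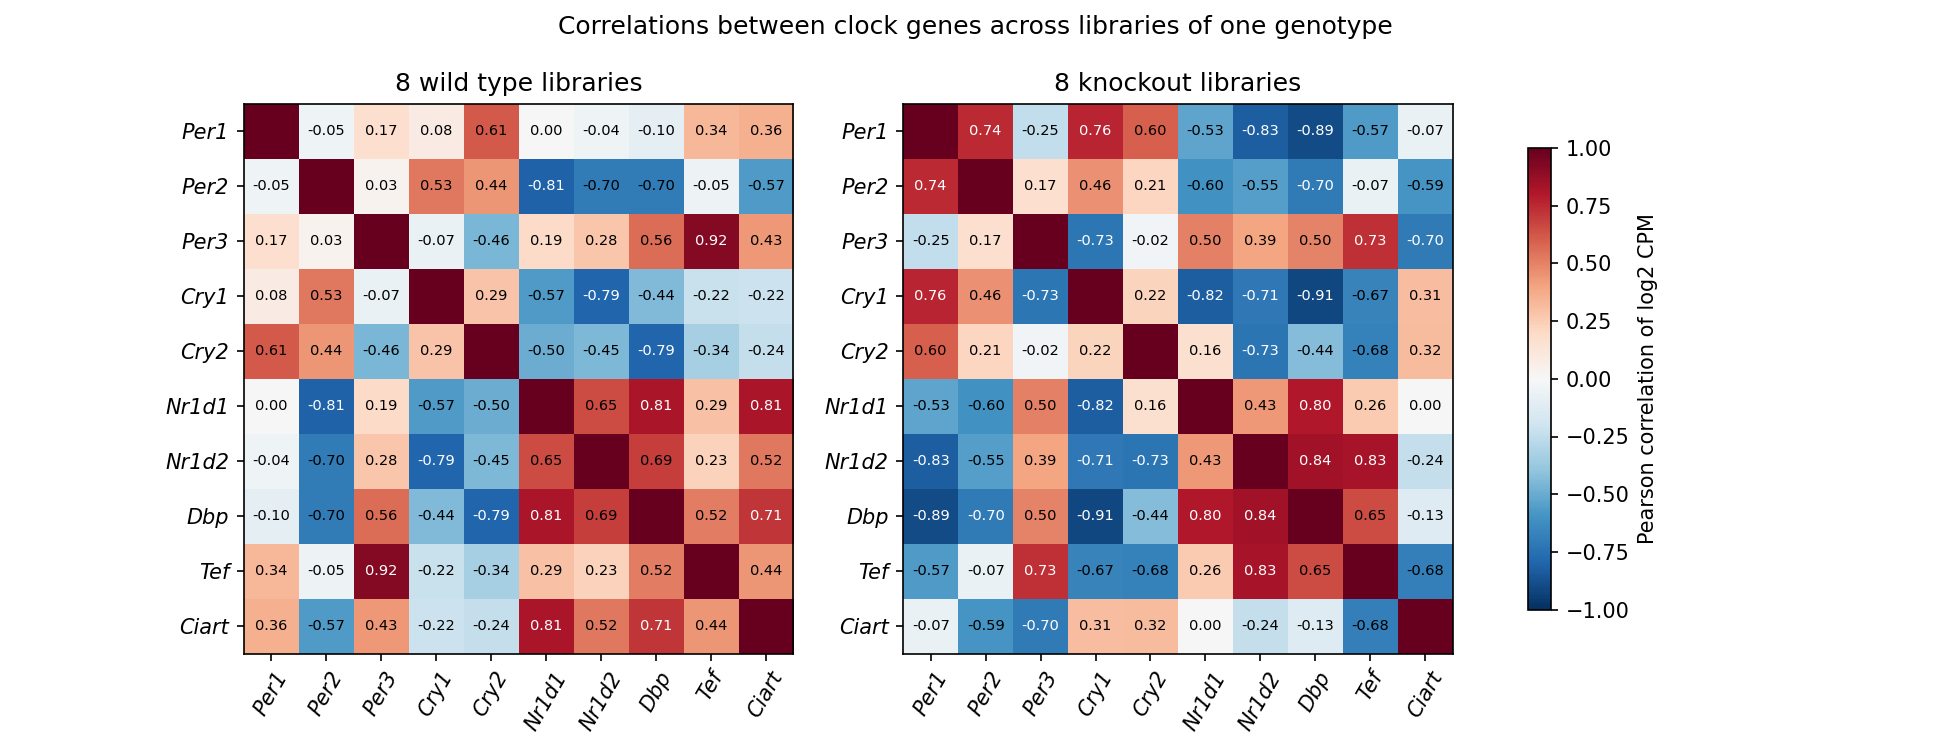
Pearson correlation of log2 CPM between each pair of the 10 members over 8 wild type (left) and 8 knockout (right) libraries, from -1 (blue) to 1 (red). Nr1d1, Nr1d2 and Dbp correlate positively with each other and negatively with Cry1 and Per2 in both genotypes, and no pair of the values drawn passed after adjustment over 90 tests.

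Over all 16 libraries centred within genotype, some clock genes lay near the ends of the ranking of genes by correlation with Dbp and others in its middle, given as a description. Nr1d2 (r = 0.82) would rank 23 from the top of 13407 other genes and Nr1d1 (0.78) 65. From the bottom, Wee1 (-0.87) would rank 9, Cry1 (-0.76) 54, Nfil3 (-0.75) 72, Per1 (-0.72) 122 and Arntl (-0.69) 163. In the middle, counted from the top, were Rora at 4203, the member Ciart at 4454, Cipc at 6343, Arntl2 at 7183, Clock at 8133 and Npas2 at 8346. These values pool the genotypes. In the wild type and then the knockout, r with Dbp was 0.69 and 0.84 for Nr1d2 and 0.81 and 0.80 for Nr1d1. It was -0.44 and -0.91 for Cry1, -0.10 and -0.89 for Per1, and 0.71 and -0.13 for Ciart. The genes that are no members and lay closest to Dbp were Sphk2 (0.95), 2700081O15Rik (0.91), Kmt5b (0.90), Cdkn1b (0.89), Grhl1 (0.89), Pitpnm3 (0.88), Kctd21 (0.87) and Hykk (0.86). Sphk2 overlaps the exons of Dbp on the other strand, so reads of the pair may be shared. The most opposite were Flvcr1 (-0.90), Spsb1 (-0.89), Nin (-0.88) and Ptpn12 (-0.88).

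Glucocorticoid, a daily hormone signal to peripheral tissues, induces Per1 and many other genes, so a list of responsive genes was read on the same axis. Of 6 such genes, 5 passed with negative slopes on Dbp, where 0.263% of all genes did: Zbtb16 at -1.54 (edgeR adjusted p = 0.00330), Sgk1 at -1.28 (edgeR adjusted p = 0.00709), Tsc22d3 at -1.37 (edgeR adjusted p = 0.0220), Fkbp5 at -1.94 (edgeR adjusted p = 0.0325) and Cebpd at -1.24 (edgeR adjusted p = 0.0378). Errfi1 had a slope of -1.32 (edgeR adjusted p = 0.131). The list was chosen with earlier results of these data known, so its share is a description and not independent support. Fkbp5, the chaperone gene of the hormone receptor, lay at 19.8, 35.5 and 112 CPM in the wild type and at 22.0, 38.1 and 119 CPM in the knockout, highest in wild type library 7 and knockout library 4, which held the lowest Dbp of their genotypes. Without knockout library 4, 0 of the 6 passed, without library 1 or 2 it was 2, and without library 3 it was 3. On total counts it was 1, and with the position in the deposit as a covariate or the replicate number as a block it was 0. Between genotypes 1 of the 6 passed, Sgk1, which rose from 52.2 ± 18.9 to 122 ± 48.4 CPM (log2 fold change 1.23; edgeR adjusted p = 9.39e-04).

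Immediate early genes, which respond within minutes to stimuli such as handling and dissection, showed no slope on Dbp past the threshold (0 of 9 by edgeR, and 0 of 9 at an unadjusted p under 0.05). Between genotypes 2 of 9 rose, a share near the 25.6% of all genes that were higher. These were Atf3 from 3.38 ± 1.31 to 8.93 ± 1.62 CPM (log2 fold change 1.39; edgeR adjusted p = 6.40e-06) and Junb from 36.5 ± 16.4 to 65.3 ± 16.5 CPM (0.83; edgeR adjusted p = 0.00929).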

How the data were processed

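Whole-number counts per gene and library were deposited for 16 mouse tail tendon libraries, 8 per genotype by the labels' titles. Per the submitters' processing notes, kallisto and featureCounts were used with build GRCm39, without versions or roles, and strand use is not given in the sources used here. Of 25719 identifiers, 25614 matched a symbol. The most similar pairs of libraries still differed by a chi-square of 6.56 (wild type) and 8.67 (knockout) per degree of freedom, so none was a repeat. The members and gene lists were chosen with earlier results of these data known.

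The counts as deposited were tested in edgeR 4.0.16 by its quasi-likelihood method (R 4.3.3; TMM, default expression filter, genotype as the term, two-sided, Benjamini-Hochberg adjustment, threshold 0.05). Log2 CPM used a prior count of 2. A second fit added the log2 CPM of Dbp centred within genotype, and another its product with genotype. The genotype and Dbp fits were tested on simulated data, and the fit with the product was not. The simulated slopes were steeper than those of the members, and the simulated axis was set to vary alike in both genotypes, unlike Dbp. That test therefore does not show how the Dbp fit performs at the slopes reported. All members were named, and of the other clock, glucocorticoid and immediate early lists the genes that passed, up to 6 a list, plus Arntl, Clock, Npas2 and Nfil3. The 8 genes most and 4 least correlated with Dbp were named among genes with a mean log2 CPM of at least 1. List counts include a few genes whose own values are not reported here. Wee1 under genotype, other genes that did not pass and the values of single libraries were named after they were seen. Alternatives were other scalings, filters and tests (DESeq2 1.42.0, limma 3.58.1), marker scores as covariates, the replicate number, each library left out and, chosen after seeing the data, the position in the deposit. Promoters and coordinates are RefSeq's on GRCm38.p6, and exon lengths are GENCODE M21's. Intervals and floors cover counting error or library spread only.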

Additional observations from a re-analysis of the deposited data

Results flagged for a closer look

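In 36 checks of 8 libraries over the members and the clock genes named, 3 held a library far from the others of its genotype by the range test for outliers, where chance gives about 1 in 20, or 1.80. Per3 in knockout library 5 had a log2 CPM of 6.58 (95.8 CPM), below the next lowest library at 7.01 (129 CPM). Without that library the log2 fold change of Per3 stayed within -0.80 to -0.70, the range over all single libraries left out. Npas2 in wild type library 7 was lowest at 1.34 (2.39 CPM), with the next at 1.89 (3.56 CPM). Rorb in wild type library 3 was highest at 4.73 (26.3 CPM), with the next at 3.93 (15.1 CPM), and its log2 fold change without single libraries lay between -1.10 and -0.79.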

How the results depend on the processing

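Of 675 fold changes of members and named clock genes under alternatives, 646 kept their call and 0 called values reversed. A value that passed in neither fit counted as kept even where its sign changed. Examples are Per1 with the endothelial score (0.06 as reported, then -0.37) and Clock on total counts (-0.15, then 0.14). The count of members called between genotypes stayed at 6 in each alternative but the endothelial covariate, where it was 4, and that of other clock genes, 14 as reported, lay between 12 and 17. The counts on the Dbp axis moved more. Members called there, 2 as reported, were 1 on total counts, 0 with the position in the deposit and 0 to 3 without single libraries. Other clock genes, 1 as reported, were 2 with DESeq2 size factors, 4 with Nr1d1 as the axis, 3 with the muscle score, 0 with the position and 1 to 2 without single libraries. Glucocorticoid-responsive genes, 5 as reported, were 1 on total counts, 0 with the position and 0 to 5 without single libraries. Of the correlations, 0 as reported, 14 of 90 pairs passed as residuals on the muscle score, by a test that made no allowance for that fit. The cause of these shifts was not tested.

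The labels number the libraries of both genotypes alike, but same-numbered libraries correlated between -0.449 and 0.457 and 1 of 8 correlated best with its own number, so the numbers were not taken as pairs; whether they follow days or times of collection is not given in the sources used here. With the replicate block, members called stayed at 6 and other clock genes at 14 (7010 genes in all, against 7151), while on the Dbp axis 0 members, 0 other clock and 0 glucocorticoid-responsive genes passed.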
